A study of Homo sapiens with 60 samples.

Results

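ATP-binding cassette (ABC) transporters are membrane proteins that use ATP to carry drugs, lipids, peptides, bile acids and metals across membranes, and the family also holds a few soluble members that work at the ribosome. The members described here are the genes whose symbol is ABC, a subfamily letter from A to G and a number: 45 of the 19712 genes in the deposited tables, made up of 12 ABCA, 9 ABCB, 11 ABCC, 4 ABCD, 1 ABCE, 3 ABCF and 5 ABCG genes. All 45 are protein-coding genes in GENCODE 29. The study profiled bulk RNA from 4 EGFR-mutant lung cancer cell lines (PC9, HCC827, H1975 and HCC2935) under osimertinib, an EGFR inhibitor. Each line has 5 arms with 3 libraries each, which makes 20 groups and 60 libraries. The labels call the 3 libraries of a group biological triplicates, and nothing else shows that they are separate cultures, so each p-value measures only the spread between these samples.

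The 5 arms differ in drug and time. In the DMSO arm parental cells grew without drug for 21 days and then received vehicle for 24 h. In the acute arm parental cells grew without drug for 21 days and then received 500 nM osimertinib for 24 h. In the DTP arm, for drug-tolerant persister cells, cells were held in 500 nM osimertinib for 21 days. In the short washout arm DTP cells then spent 24 h without drug. In the long washout arm, by its label, DTP cells were kept without drug until exponential growth resumed, given as 7 days in PC9, 4 in HCC827, 3 in H1975 and 10 in HCC2935. Every sample is a cancer cell line grown in culture, so none of it stands for normal lung epithelium.

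As background, ABCB1 (P-glycoprotein), ABCG2 (breast cancer resistance protein) and several ABCC proteins (the multidrug resistance proteins) pump drugs and drug conjugates out of cells, and ABCB1 and ABCG2 are the members best known for lowering the amount of kinase inhibitor inside a cell. Most ABCA members move lipids, ABCD members serve peroxisomes and lysosomes, and several ABCB members sit in the inner mitochondrial membrane. ABCE1 and the ABCF proteins lack membrane-spanning parts: ABCE1 splits ribosomes after translation ends, and ABCF1 takes part in translation initiation.

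The labels of the acute and DTP arms fit the marker genes, and that of long washout fits them in 2 of the lines. DUSP6, SPRY4, ETV4 and PHLDA1, which rise with EGFR and MAPK signalling, were 4 of 4 lower in acute than in DMSO cells in every line, with median log2 differences of -4.49 in PC9, -3.48 in HCC827, -3.64 in H1975 and -4.03 in HCC2935. In DTP cells 4 of the 4 were lower in PC9, H1975 and HCC2935, and 2 of 4 in HCC827, where the median was -1.02. MKI67, TOP2A and CDK1, which mark dividing cells, were 3 of 3 lower in both comparisons in every line. In long washout against DTP cells these 3 rose in PC9 (median 1.10) and HCC2935 (1.47), but 0 of 3 were called in HCC827 (-0.02) and H1975 (-0.24). Against DMSO all 3 were still lower after long washout in HCC827 (-1.48), H1975 (-1.97) and HCC2935 (-0.63). Likewise 4 of the 4 signalling genes rose over DTP in PC9, 3 in HCC2935 and 0 in HCC827 and H1975. So in HCC827 and H1975 these genes show no called rise to go with the regrowth that the long washout label states. All 5 epithelial markers (EPCAM, KRT8, KRT18, KRT19 and CDH1) were expressed in every line under DMSO. All 60 libraries correlate most strongly with a library of their own line, and 47 with a library of their own group. Replicate 3 of PC9 long washout stands apart from its group: its lowest correlation there is 0.9855, against 0.9961 with a short washout library, and its sum over DUSP6, SPRY4, ETV4 and PHLDA1 is 20.8 TPM where the others read 65.6 and 85.1 TPM. Why it differs was not tested.

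Levels below are in TPM (a scale of transcript abundance that takes gene length and library depth into account), and a member is called expressed where the mean of an arm reaches 1 TPM. By that rule 25 of the 45 members were expressed in PC9, 31 in HCC827, 26 in H1975 and 33 in HCC2935. In all 4 lines 22 members were expressed, 36 in at least 1 line and 9 in none. The shared members include ABCA1, ABCA2, ABCA3, ABCA5, ABCA7, ABCB6, ABCB8, ABCB10, ABCC1, ABCC3, ABCC5, ABCC10, ABCD4, ABCE1, ABCF1, ABCF2 and ABCG2. Some members were expressed in 3 lines: ABCA12, ABCC4, ABCC6 and ABCC9 in all but PC9, and ABCA4 and ABCC2 in all but H1975. ABCB1 alone was expressed in 2 lines, HCC827 and HCC2935. The 7 members expressed in 1 line are ABCA8, ABCA9, ABCA10 and ABCA13 in HCC2935, ABCB4 and ABCB5 in HCC827, and ABCG1 in PC9. ABCA6, ABCB11, ABCC8, ABCC11, ABCC12, ABCD2, ABCG4, ABCG5 and ABCG8 reached the level in no arm. Of these 9, ABCB11 (the bile salt pump of liver), ABCC8 (the sulfonylurea receptor of pancreatic beta cells) and the sterol pumps ABCG5 and ABCG8 stayed under 0.3 TPM in each of the 60 libraries.

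The highest group mean of any member is that of ABCC3, a pump for glucuronide conjugates and bile acids, at 267 TPM in acute HCC2935 cells. ABCC5, a pump for nucleotide analogues, reached 185 TPM in acute PC9 cells, and ABCD4, which brings cobalamin out of lysosomes, 128 TPM in acute HCC2935 cells. The soluble members ABCF1, ABCF2 and ABCE1 peaked under DMSO, at 124 TPM in HCC2935, 107 TPM in H1975 and 102 TPM in PC9. ABCG2 peaked at 31.7 TPM in acute H1975 cells and ABCB1 at 10.1 TPM in acute HCC827 cells. The members expressed at the lowest peaks are ABCB5 (1.01 TPM), ABCA9 (1.12 TPM), ABCC2 (1.47 TPM) and ABCB4 (1.62 TPM). ABCA8 (3.19 TPM), ABCG1 (2.88 TPM), ABCA13 (2.63 TPM) and ABCA10 (2.44 TPM) also peaked low. Of other shared members, ABCF3 peaked at 65.6 TPM, ABCA7 at 50 TPM, ABCB6 at 38.7 TPM, ABCB10 at 20.1 TPM, ABCA1 at 17.1 TPM and ABCB9 at 15.3 TPM.

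Summed over the 45 members, the family's mean level under DMSO was 806 TPM in PC9, 608 in HCC827, 725 in H1975 and 1014 in HCC2935. ABCC3 alone made up 24.6% of that sum in HCC2935 and 16.5% in PC9, while ABCE1 led in HCC827 with 13.4% and ABCF2 in H1975 with 14.7%. In DTP cells the sum was 888 TPM in PC9, 645 in HCC827, 636 in H1975 and 1092 in HCC2935. These sums carry no test.

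Tests compare arms within a line: the edgeR quasi-likelihood F-test on estimated counts, and its p-values are adjusted (Benjamini-Hochberg) across every gene that entered the fit. A change is called "higher" or "lower", or is said to have risen or fallen, where its adjusted p is under 0.05. Log2 differences are given with their standard error, and 1 unit is a doubling. After the filter on low counts 34 members could be tested in PC9, 36 in HCC827, 36 in H1975 and 37 in HCC2935. Acute, DTP and long washout cells are each compared with the same DMSO libraries, so those comparisons share their controls. These are bulk samples, in which fewer cells of a type and less RNA per cell cannot be told apart.

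**Figure D1:**
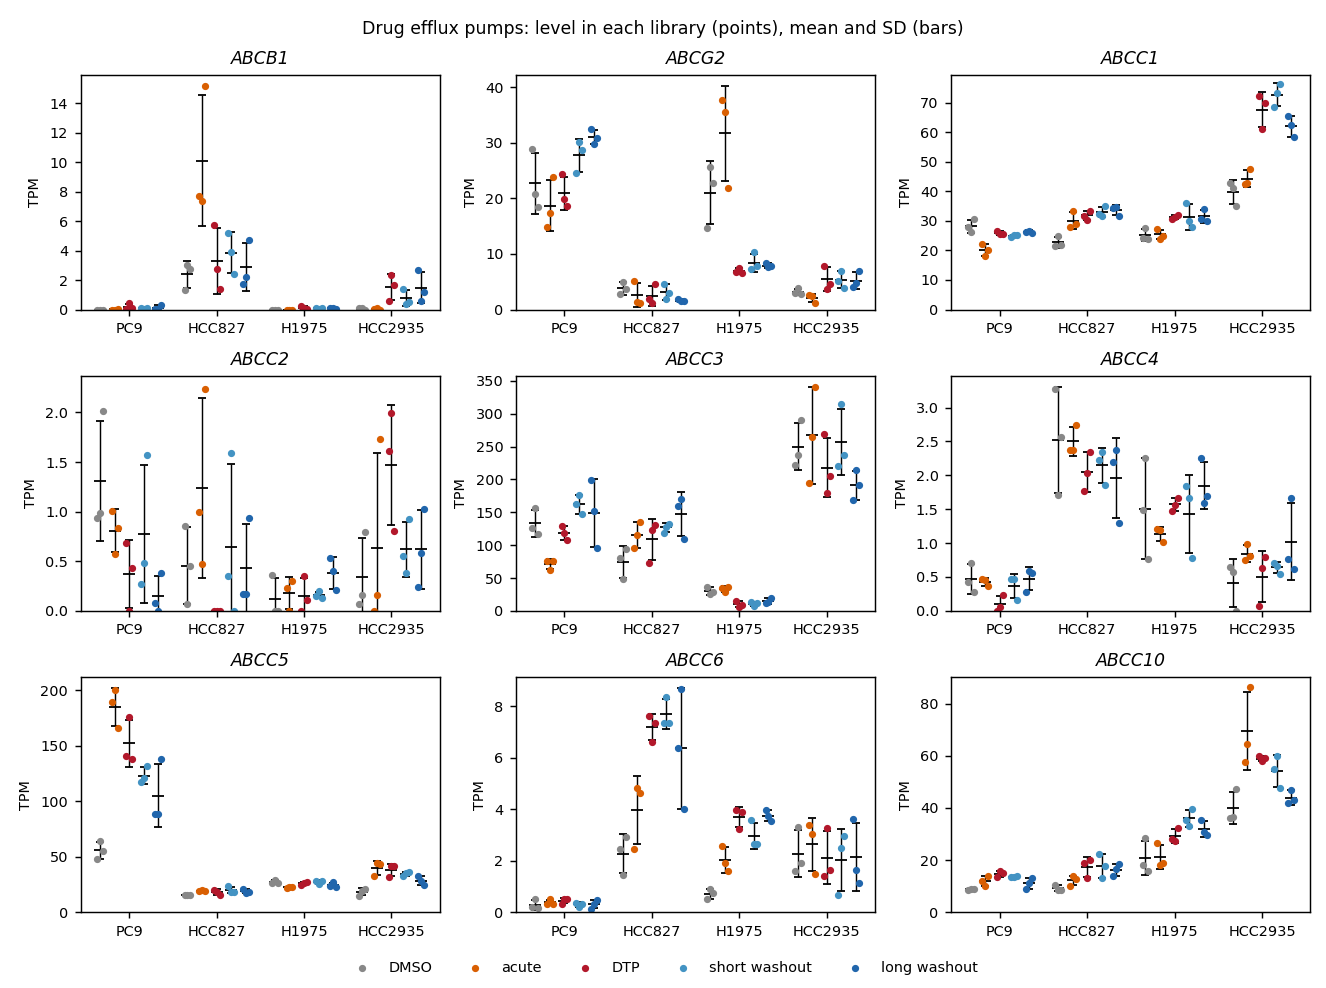
Level of 9 pumps in every library. Each point is 1 library in TPM, with the 5 arms of each line side by side; the horizontal mark is the mean of 3 libraries and the bar its standard deviation. ABCB1 is near 0 in PC9 and H1975, while ABCC3 and ABCC5 are among the most abundant members.

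ABCB1 was the pump with the most uneven presence. In HCC827 it stood at 1.33, 3.02 and 2.78 TPM under DMSO and at 7.71, 7.37 and 15.2 TPM in acute cells. Every acute library lies above every DMSO library, and ABCB1 rose (2.01 ± 0.49 log2 units, adjusted p = 0.00478, 3 of 3 libraries). In DTP cells of this line it read 5.74, 2.73 and 1.39 TPM, which overlaps the DMSO range, and the difference was 0.40 ± 0.48 (adjusted p = 0.536, 1 of 3 libraries above every DMSO library). DTP cells of HCC827 were below acute cells (-1.60 ± 0.48, adjusted p = 0.0216, 3 of 3). That call is lost with a library left out. The washout arms of HCC827 stayed within 1.74 to 5.23 TPM.

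In HCC2935 the DTP cells, and not the acute cells, held the most ABCB1. It read 0.102, 0.0959 and 0 TPM under DMSO, 0.0277, 0.125 and 0 TPM in acute cells, and 0.603, 2.37 and 1.65 TPM in DTP cells. Each DTP library lies above all DMSO and acute libraries, with a wide spread among the 3. The rise in DTP over DMSO was 4.36 ± 0.92 log2 units (adjusted p = 0.000879, 3 of 3 libraries), from 7 counts summed over the DMSO libraries to 158. After long washout ABCB1 was still at 2.69, 0.611 and 1.16 TPM, higher than DMSO by 4.36 ± 0.92 (adjusted p = 0.00126, 3 of 3). The acute difference was -0.33 ± 1.25 (adjusted p = 0.847, 0 of 3 libraries below every DMSO library). The acute change of ABCB1 was not called as different among the 4 lines by the test of that difference (adjusted p = 0.519).

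PC9 and H1975 hold almost no ABCB1 RNA and it was not tested there. No DMSO library of either line has a single count for it. In PC9 it read 0.0496, 0.424 and 0.0902 TPM in DTP cells, from 41 counts, and in H1975 0.213, 0.112 and 0.00633 TPM, from 29 counts. All DTP and washout libraries of these lines carry some counts, at levels under 0.5 TPM, and the 3 acute libraries of H1975 carry none. The gene lies at chr7:87503633-87713323 on the minus strand of GRCh38, and RUNDC3B overlaps it on the opposite strand, so reads shared with that gene are an uncertainty at such low counts. The neighbouring ABCB4, a phospholipid pump of bile, was tested only in HCC827 and HCC2935. It was called in neither line in acute or DTP cells. After long washout it was above DMSO in HCC827 (2.44 ± 0.88, adjusted p = 0.0364, 3 of 3 libraries).

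ABCG2 was abundant in H1975 and PC9 and low in the other lines. In H1975 it read 14.7, 25.6 and 22.7 TPM under DMSO, 37.7, 35.6 and 21.9 TPM in acute cells and 6.82, 7.45 and 6.52 TPM in DTP cells. The DTP libraries lie far below both other groups, while 1 of the acute libraries falls inside the DMSO range. ABCG2 rose in acute cells (0.64 ± 0.21, adjusted p = 0.0198, 2 of 3 libraries) and fell in DTP cells (-1.58 ± 0.22, adjusted p = 3.77e-05, 3 of 3 libraries). After long washout it remained below DMSO, at 8.35, 7.61 and 7.75 TPM (-1.37 ± 0.22, adjusted p = 0.000101, 3 of 3 libraries). The acute call is lost when only the acute and DMSO libraries enter the fit.

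In PC9 ABCG2 read 28.9, 20.7 and 18.5 TPM under DMSO and 24.3, 19.9 and 18.6 TPM in DTP cells. These groups overlap almost fully, and the difference of -0.37 ± 0.18 was not called (adjusted p = 0.0847, 0 of 3 libraries below every DMSO library). Long washout brought PC9 to 32.4, 29.8 and 30.9 TPM, above DTP by 0.65 ± 0.18 (adjusted p = 0.013, 3 of 3 libraries). HCC827 held 2.76, 4.99 and 3.68 TPM under DMSO and 1.84, 1.09 and 4.54 TPM in DTP cells (-0.62 ± 0.56, adjusted p = 0.407, 2 of 3 libraries). HCC2935 went from 2.95, 3.79 and 2.84 TPM to 7.86, 3.75 and 4.62 TPM, a difference that was not called (0.62 ± 0.34, adjusted p = 0.14, 2 of 3 libraries). In both of these lines the DTP and DMSO ranges overlap. The DTP difference in ABCG2 differs among the 4 lines (adjusted p = 0.00439 by the test of that difference), from 0.62 in HCC2935 to -1.58 in H1975.

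ABCC1, which exports glutathione conjugates, was well expressed everywhere and moved in both directions in DTP cells. In HCC2935 it read 43, 41.3 and 35.2 TPM under DMSO and 72.3, 61.1 and 69.8 TPM in DTP cells, 2 groups that do not overlap (0.62 ± 0.10, adjusted p = 6.15e-05, 3 of 3 libraries). It also rose in DTP cells of HCC827, from 21.6, 24.8 and 21.8 to 31.8, 30.4 and 33.5 TPM (0.47 ± 0.11, adjusted p = 0.00268, 3 of 3). In H1975 it went from 24.2, 27.6 and 24 to 30.6, 31.2 and 31.9 TPM, again with no overlap (0.33 ± 0.09, adjusted p = 0.00542, 3 of 3). PC9 is the exception, at 28, 26.2 and 30.6 TPM under DMSO and 26.7, 25.5 and 25.5 TPM in DTP cells. There the called fall of -0.38 ± 0.09 (adjusted p = 0.00126, 2 of 3 libraries) goes with a small gap in TPM and is lost with limma on log2 TPM. The DTP difference differs among lines (adjusted p = 5.27e-08).

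In acute cells ABCC1 rose in HCC827 (0.34 ± 0.11, adjusted p = 0.0199, 3 of 3 libraries) and fell in PC9, where it read 22.3, 18 and 20.3 TPM (-0.46 ± 0.09, adjusted p = 0.000242, 3 of 3 libraries). The acute HCC827 call of ABCC1 is lost with a library left out. Long washout kept it above DMSO in the 3 lines in which DTP cells had more of it: by 0.53 ± 0.11 in HCC827, 0.35 ± 0.09 in H1975 and 0.54 ± 0.10 in HCC2935, each with 3 of 3 libraries above every DMSO library (adjusted p = 0.00122, 0.00322 and 0.000327).

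Scaling matters for small changes in PC9. With library size in place of TMM scaling (the method that lines up libraries on genes that change little), the median over all genes in DTP against DMSO moves by 0.14 in this line, so the direction of small PC9 differences depends on the scaling.

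In DTP cells ABCC3 was called lower in H1975 and was not called in the other lines. In H1975 it read 36.6, 25.4 and 28.8 TPM under DMSO and 15.4, 6.09 and 9.52 TPM in DTP cells, groups that do not overlap (-1.54 ± 0.30, adjusted p = 0.000643, 3 of 3 libraries). In HCC2935 it read 222, 237 and 290 TPM under DMSO and 269, 180 and 206 TPM in DTP cells, groups that overlap (-0.33 ± 0.18, adjusted p = 0.139, 2 of 3 libraries). In PC9 it fell in acute cells, from 126, 156 and 117 to 76, 62.5 and 76.1 TPM (-0.88 ± 0.21, adjusted p = 0.00194, 3 of 3). PC9 DTP cells stood at 129, 119 and 108 TPM, inside or near the DMSO range. Their difference from acute cells was not called (0.46 ± 0.21, adjusted p = 0.103). In HCC827 the long washout libraries, at 160, 171 and 109 TPM, all exceed the DMSO libraries at 80.6, 47.9 and 94.5 TPM (0.94 ± 0.27, adjusted p = 0.0121). After long washout ABCC3 was below DMSO in H1975 (-0.99 ± 0.30, adjusted p = 0.0108, 3 of 3) and in HCC2935, where it is most abundant (-0.48 ± 0.18, adjusted p = 0.0457, 3 of 3); the HCC2935 call is lost with limma or a replicate block. The long washout calls of HCC827, H1975 and HCC2935 against DMSO are each lost with a library left out. The DTP difference in ABCC3 differs among lines (adjusted p = 0.000209).

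ABCC5 gave the largest rise of an abundant pump. In PC9 it read 48.2, 64 and 55 TPM under DMSO, 189, 200 and 166 TPM in acute cells and 141, 176 and 138 TPM in DTP cells. Both drug arms stand clear of DMSO, by 1.76 ± 0.15 in acute cells (adjusted p = 2.52e-07, 3 of 3) and 1.20 ± 0.15 in DTP cells (adjusted p = 6.74e-06, 3 of 3). In HCC2935 it went from 14.8, 19.5 and 21.1 TPM to 32.7, 43.9 and 43.6 TPM in acute cells (1.16 ± 0.14, adjusted p = 6.91e-06, 3 of 3). HCC2935 DTP cells held 31.9, 41.5 and 41.4 TPM, also clear of DMSO (0.91 ± 0.14, adjusted p = 5.05e-05, 3 of 3). HCC827 and H1975 show no such rise. HCC827 read 15.5, 15.6 and 15.1 TPM under DMSO and 20.4, 18.5 and 15.6 TPM in DTP cells (0.21 ± 0.10, adjusted p = 0.125, 3 of 3). H1975 read 26.1, 29.3 and 26.2 TPM under DMSO and 24.2, 26.3 and 27.3 TPM in DTP cells, overlapping groups (-0.05 ± 0.08, adjusted p = 0.654, 1 of 3), and fell slightly in acute cells (-0.24 ± 0.08, adjusted p = 0.0247, 3 of 3). That acute call is lost with a library left out. The change in ABCC5 differs among lines for acute (adjusted p = 1.05e-11) and for DTP cells (adjusted p = 1.06e-07).

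ABCC10, a lipophilic drug pump, is the one member that rose in DTP cells of all 4 lines. In PC9 it read 8.6, 8.88 and 8.85 TPM under DMSO and 13.3, 15.7 and 15 TPM in DTP cells (0.49 ± 0.13, adjusted p = 0.00311, 3 of 3). HCC827 went from 10.5, 8.68 and 8.55 to 19, 13 and 20 TPM (0.88 ± 0.19, adjusted p = 0.00207, 3 of 3). HCC2935 went from 36.2, 36.5 and 47.2 to 59.7, 57.9 and 59.2 TPM (0.42 ± 0.12, adjusted p = 0.00849, 3 of 3). In these lines the groups do not overlap. H1975 is the weakest case, with 18, 28.3 and 15.9 TPM under DMSO and 28, 27.4 and 32.2 TPM in DTP cells, groups that overlap (0.53 ± 0.19, adjusted p = 0.0295, 1 of 3); the call is lost when only these 2 arms enter the fit, with no filter, and without DMSO replicate 1 or 3 or DTP replicate 3. In acute cells ABCC10 rose in PC9 (0.47 ± 0.13, adjusted p = 0.00434, 3 of 3) and HCC2935 (0.83 ± 0.12, adjusted p = 4.4e-05, 3 of 3). After long washout it was above DMSO in HCC827 (0.76 ± 0.19, adjusted p = 0.00591, 3 of 3) and H1975 (0.67 ± 0.19, adjusted p = 0.0079, 3 of 3).

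ABCC6, loss of which causes pseudoxanthoma elasticum, rose in 2 lines. In H1975 it read 0.504, 0.902 and 0.739 TPM under DMSO, 2.59, 1.91 and 1.61 TPM in acute cells and 3.98, 3.25 and 3.88 TPM in DTP cells. The 3 groups form 3 separate steps: 1.55 ± 0.23 above DMSO in acute cells (adjusted p = 7.27e-05, 3 of 3) and 2.40 ± 0.24 in DTP cells (adjusted p = 2.53e-06, 3 of 3). In HCC827 it went from 2.45, 1.45 and 2.94 TPM to 7.61, 6.62 and 7.37 TPM in DTP cells, with no overlap (1.62 ± 0.32, adjusted p = 0.000829, 3 of 3). HCC2935 read 1.59, 3.32 and 1.93 TPM under DMSO and 1.39, 3.29 and 1.64 TPM in DTP cells, nearly the same range (-0.25 ± 0.53, adjusted p = 0.721, 1 of 3). In PC9 it stayed under 0.6 TPM in every library. ABCC6 has 2 named pseudogenes, ABCC6P1 and ABCC6P2, so reads shared with them are an uncertainty in its level. The DTP difference differs among lines (adjusted p = 0.00054).

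ABCC2, ABCC4 and ABCC9 are low members whose calls rest on few counts. ABCC2, the canalicular conjugate pump, read 0.935, 0.987 and 2.01 TPM under DMSO and 0.684, 0 and 0.435 TPM in DTP cells of PC9 (-2.08 ± 0.89, adjusted p = 0.0492, 3 of 3), a call lost with limma or with library size scaling. ABCC4, which exports cyclic nucleotides and nucleotide analogues, read 0.425, 0.711 and 0.279 TPM and then 0, 0.0589 and 0.24 TPM in the same comparison (-2.42 ± 0.73, adjusted p = 0.00908, 3 of 3). Both falls are in PC9, at or under about 2 TPM, and neither gene was called in the DTP comparison of another line. ABCC4 was highest in HCC827, at 3.27, 1.71 and 2.57 TPM under DMSO.

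ABCC9, a regulatory subunit of potassium channels, behaved differently from line to line. In PC9 it rose in DTP cells, from 0.206, 0.209 and 0.177 to 0.468, 0.476 and 0.488 TPM (1.02 ± 0.26, adjusted p = 0.00276, 3 of 3). In HCC2935 it fell in acute cells, from 0.729, 0.725 and 0.708 to 0.349, 0.572 and 0.37 TPM (-0.70 ± 0.27, adjusted p = 0.0441, 3 of 3), a call lost with limma, no filter or only the 2 arms. The DTP difference in ABCC9 differs among lines (adjusted p = 0.00107). ABCC11 passed the filter in every line and was called in none in acute or DTP cells.

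After 24 h of osimertinib the members that changed alike in every line were split between roles. How many of all genes changed alike in every line was not counted. ABCA5, ABCA7 and ABCD4 rose in all 4 lines, and ABCB10, ABCE1, ABCF1 and ABCF2 fell in all 4. ABCA2 and ABCA4 rose in 3 lines and ABCD3 fell in 3. Some of these calls depend on the fit: ABCA2 in PC9 is lost with DESeq2, limma, RLE scaling, no filter or only the 2 arms, ABCA2 in HCC2935 with limma, and ABCA5 in HCC827 with only the 2 arms or a replicate block. The calls of ABCD4 and ABCA4 in HCC827, ABCF1 in HCC2935 and ABCD3 in PC9 are lost with a library left out. Alternative fits are not given here for ABCA7 and ABCB10. The ABCA7 calls in HCC827 (adjusted p = 0.0446) and H1975 (adjusted p = 0.0368) lie close to the threshold. ABCA3, ABCC1 and ABCC5 were called in opposite directions in different lines, though the fall of ABCC5 in H1975 is lost with a library left out. The 7 tested members called in no line were ABCA6, ABCA9, ABCB4, ABCC2, ABCC4, ABCC11 and ABCG4.

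In acute against DMSO cells 15 of the 34 members tested rose in PC9, where 34.5% of all genes tested did, and 9 fell, where 31.7% of all genes did. In HCC827 8 of 36 rose (18.7% of all genes) and 5 fell (20.2%). In H1975 9 of 36 rose (27.8%) and 6 fell (23.8%). In HCC2935 12 of 37 rose (24.9%) and 6 fell (22.2%). In most lines these shares stay near those of all genes, so the counts alone say little about the family. The median log2 difference of members was 0.35 in PC9 (0.07 over all genes), 0.19 in HCC827 (0.02), 0.07 in H1975 (0.10) and 0.19 in HCC2935 (0.07).

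**Figure D2:**
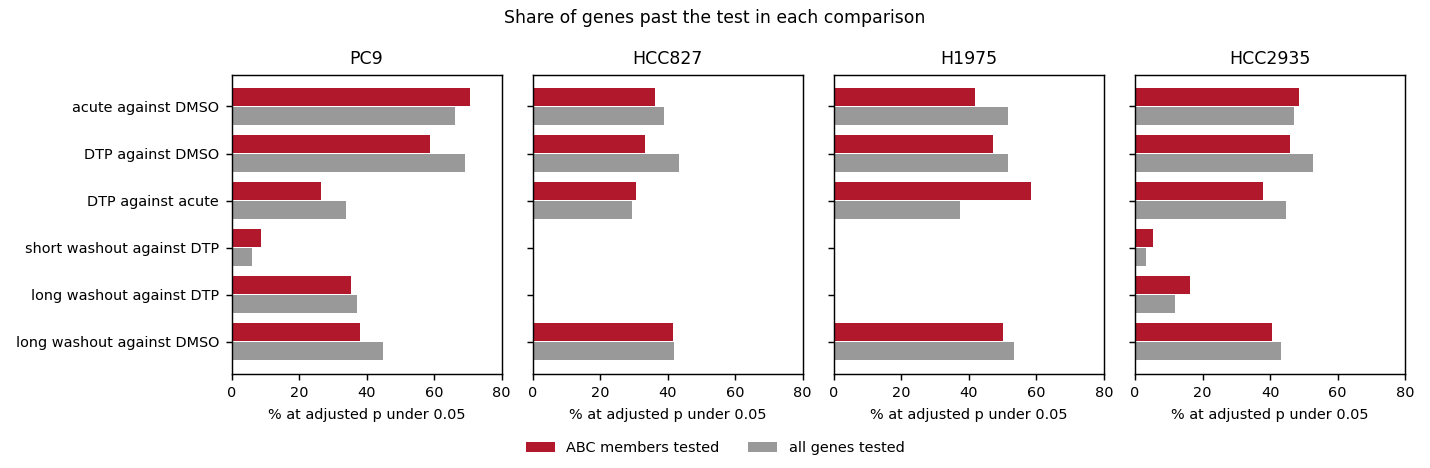
Share of ABC members and of all genes tested that passed the test, in each of 6 comparisons and 4 lines. Each bar is the percentage with adjusted p under 0.05 in either direction. The members' share tracks that of all genes in most comparisons, and both are near 0 for the comparisons of washout with DTP cells in HCC827 and H1975.

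The drug efflux pumps as a list (ABCB1, ABCG2, ABCC1 to ABCC6, ABCC10 and ABCC11, 10 genes) went both ways after 24 h. In PC9 2 of the 9 tested rose (34.5% of all genes) and 2 fell (31.7%), median -0.12, and in H1975 2 of 8 rose (27.8%) and 1 fell (23.8%), median 0.12. In HCC827 2 of 9 rose (18.7%) and 0 fell (20.2%), median 0.34, and in HCC2935 2 of 10 rose (24.9%) and 0 fell (22.2%), median 0.23. The calls are those described above for ABCB1, ABCG2, ABCC1, ABCC3, ABCC5, ABCC6 and ABCC10.

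The soluble members ABCE1, ABCF1 and ABCF2 fell together in acute cells. In every line 3 of the 4 soluble members fell, with medians of -0.73 in PC9 (31.7% of all genes fell), -0.37 in HCC827 (20.2%), -0.86 in H1975 (23.8%) and -0.47 in HCC2935 (22.2%). The HCC827 calls are weak: that of ABCF1 is lost with limma, other scaling, no filter, only the 2 arms or a replicate block, and that of ABCF2 with limma or library size scaling. ABCE1, needed to split ribosomes for another round of translation, read 111, 90 and 105 TPM under DMSO and 32.8, 25.5 and 35.2 TPM in acute cells of PC9 (-1.70 ± 0.17, adjusted p = 7.05e-07, 3 of 3). The other lines fell by less: -1.17 ± 0.11 in HCC2935 (adjusted p = 5.84e-07), -1.16 ± 0.13 in H1975 (adjusted p = 8.78e-06) and -0.74 ± 0.14 in HCC827 (adjusted p = 0.000862), each with 3 of 3 libraries below every DMSO library. The 2 groups do not overlap in any line, and the size of the fall differs among lines (adjusted p = 0.00209). ABCF2 fell most in H1975, from 111, 108 and 101 to 47.3, 48.6 and 40.8 TPM (-1.19 ± 0.09, adjusted p = 8.24e-07, 3 of 3), and least in HCC827 (-0.37 ± 0.12, adjusted p = 0.0295, 2 of 3). ABCF1 fell by 0.29 to 0.56 log2 units. ABCF3 did not join them, since it rose in PC9 (0.25 ± 0.09, adjusted p = 0.0271, 3 of 3) and HCC2935 (0.32 ± 0.12, adjusted p = 0.0389, 2 of 3). ABCF2 has 2 named pseudogenes and ABCE1 overlaps ANAPC10 and OTUD4 on the opposite strand, so some reads may be shared.

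Among the proliferation markers, MKI67, TOP2A and CDK1 fell in the same comparison, with medians of -1.65 in PC9, -2.39 in HCC827, -2.23 in H1975 and -1.95 in HCC2935. Their part in the change of the soluble members was not tested.

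The mitochondrial members described here moved in different directions in acute cells. ABCB10, tied to haem synthesis in red cell precursors, fell in all 4 lines, most in PC9, from 8.32, 8.15 and 8.65 to 2.71, 2.41 and 3.54 TPM (-1.52 ± 0.17, adjusted p = 2.01e-06, 3 of 3). ABCB6, a porphyrin transporter, rose in PC9 (0.46 ± 0.09, adjusted p = 0.000345, 3 of 3) and H1975 (0.68 ± 0.12, adjusted p = 0.000236, 3 of 3). ABCB8 also rose in PC9 (0.27 ± 0.08, adjusted p = 0.0108, 3 of 3).

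Of the lysosomal members ABCA2, ABCB9 and ABCD4, 3 of 3 rose in PC9 (34.5% of all genes did), 1 in HCC827 (18.7%), 2 in H1975 (27.8%) and 2 in HCC2935 (24.9%). In HCC827 ABCB9 (-0.49 ± 0.23, adjusted p = 0.111) and ABCA2 (-0.09 ± 0.26, adjusted p = 0.808) were not called. ABCD4 read 61, 53.2 and 65.2 TPM under DMSO and 120, 123 and 139 TPM in acute cells of HCC2935, roughly a doubling with no overlap (1.13 ± 0.10, adjusted p = 4.74e-07, 3 of 3). In PC9 it went from 50.4, 56.8 and 53.4 to 94.1, 89.5 and 78.4 TPM (0.73 ± 0.10, adjusted p = 2.55e-05, 3 of 3). H1975 rose by 0.61 ± 0.11 (adjusted p = 0.000377, 3 of 3) and HCC827 by 0.54 ± 0.15 (adjusted p = 0.011, 3 of 3). ABCD3, a peroxisomal carrier of branched chain fatty acids and bile acid precursors, fell in PC9, HCC827 and H1975, most in HCC827 (-0.72 ± 0.11, adjusted p = 0.000168, 3 of 3). ABCA2, a lysosomal lipid transporter, rose in 3 lines, most in H1975 (0.51 ± 0.14, adjusted p = 0.00698, 3 of 3). ABCB9, a lysosomal peptide pump, rose in PC9 (0.73 ± 0.15, adjusted p = 0.000648, 3 of 3).

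Lipid transporters of subfamily A gave the largest acute rises. ABCA4, the retinal flippase of photoreceptors, read 0.958, 2.15 and 1.43 TPM under DMSO and 10.7, 15.1 and 11.8 TPM in acute cells of PC9 (3.06 ± 0.26, adjusted p = 2.28e-07, 3 of 3). It also rose in HCC2935, from 7.22, 6.33 and 6.76 to 19.2, 27.6 and 38.4 TPM (2.09 ± 0.34, adjusted p = 0.000123, 3 of 3). In both lines every acute library is well above every DMSO library. HCC827 rose from a lower level, 0.271, 0.0649 and 0.45 TPM, to 2.61, 0.64 and 1.5 TPM (2.46 ± 0.69, adjusted p = 0.0115, 3 of 3). ABCA7, a phospholipid exporter, rose by 0.41 to 0.70 log2 units in the 4 lines. ABCA1, the cholesterol exporter that loads HDL, rose in HCC2935 alone, from 0.689, 0.473 and 0.461 to 2.21, 1.86 and 2.19 TPM (1.97 ± 0.33, adjusted p = 0.000135, 3 of 3). ABCG1, a partner in sterol export, rose in PC9 (0.82 ± 0.26, adjusted p = 0.0111, 2 of 3). ABCA8 rose in HCC2935 (1.23 ± 0.47, adjusted p = 0.0397, 3 of 3) and ABCA10 in PC9 (2.48 ± 0.88, adjusted p = 0.0225, 2 of 3), both at under 1 TPM.

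After 21 days of osimertinib fewer members had changed alike in all 4 lines than after 24 h. The same count over all genes was not taken. ABCC10 is the only member higher in DTP than in DMSO cells of all 4 lines, and ABCE1 the only one lower in all 4. Both statements rest on weaker H1975 calls: that of ABCC10 is lost in several fits, and that of ABCE1 without DTP replicate 1 (adjusted p = 0.0593). ABCA2, ABCA3, ABCA5, ABCC1 and ABCD4 rose in 3 lines, and ABCA12, ABCD3 and ABCF2 fell in 3, though the HCC2935 call of ABCD3 is lost with limma. The HCC827 and HCC2935 calls of ABCD3 are each lost with a library left out. ABCA1, ABCA4 and ABCC1 were called in opposite directions in different lines. ABCA6, ABCA7, ABCA10, ABCB4, ABCC11 and ABCG4 were called in no line.

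In DTP against DMSO cells 10 of 34 members rose in PC9 (35.7% of all genes) and 10 fell (33.5%). In HCC827 7 of 36 rose (23%) and 5 fell (20.4%), and in H1975 8 rose (26%) and 9 fell (25.7%). In HCC2935 10 of 37 rose (27%) and 7 fell (25.8%). These shares lie near or below those of all genes. Member medians were 0.14 in PC9 (0.06 over all genes), 0.06 in HCC827 (0.03), 0.15 in H1975 (0.02) and 0.21 in HCC2935 (0.04).

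The efflux pump list is small, and its counts in DTP cells were not tested against those of all genes. In HCC2935 4 of 10 rose (ABCB1, ABCC1, ABCC5 and ABCC10; 27% of all genes rose) and 0 fell (25.8%), with a median of 0.62. In HCC827 3 of 9 rose (ABCC1, ABCC6 and ABCC10; 23%) and 0 fell (20.4%), with a median of 0.47. In H1975 3 of 8 rose (ABCC1, ABCC6 and ABCC10; 26%) and 2 fell (ABCC3 and ABCG2; 25.7%), median 0.21. In PC9 2 of 9 rose (ABCC5 and ABCC10; 35.7%) and 3 fell (ABCC1, ABCC2 and ABCC4; 33.5%), median -0.37.

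**Figure D3:**
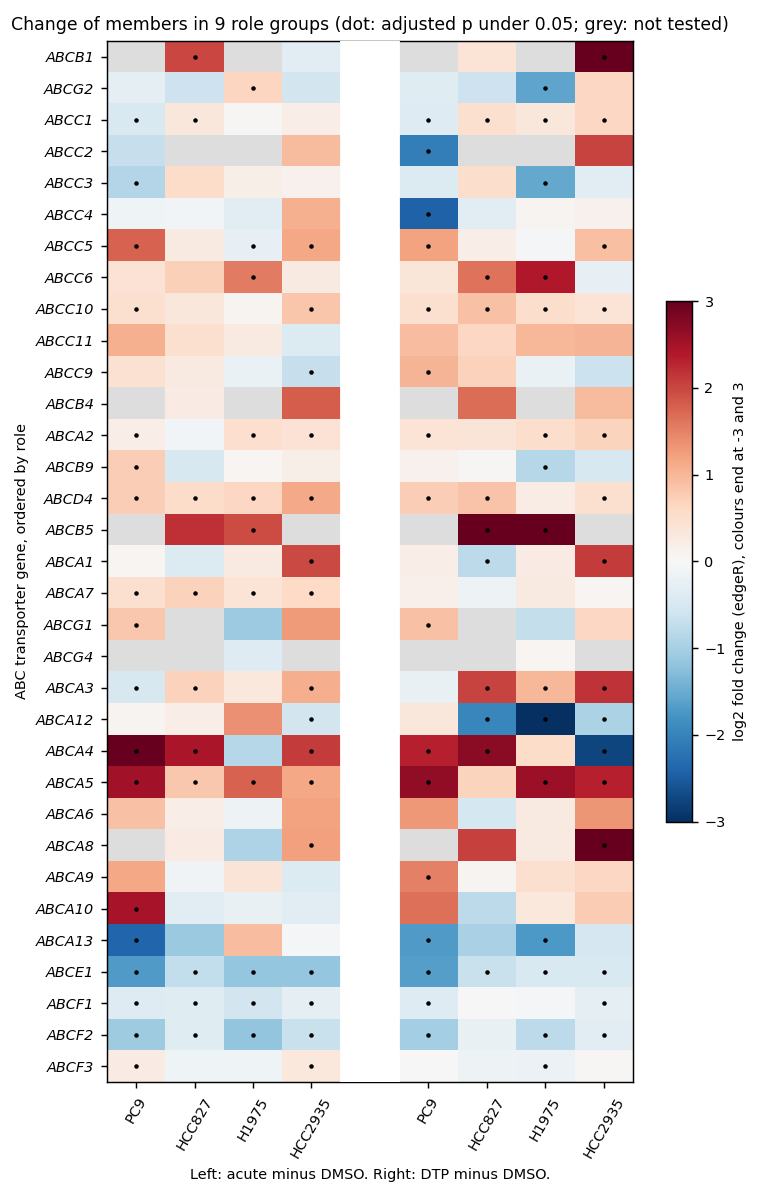
Log2 difference of the tested members of 9 role groups in the 4 lines. The left block is acute against DMSO and the right block DTP against DMSO; red is higher and blue lower than DMSO, and colours end at -3 and 3. A dot marks adjusted p under 0.05 and grey a member that was not tested. ABCE1, ABCF1 and ABCF2 are blue across the left block, while ABCA5 and ABCD4 are red in both blocks.

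Promoters are shown for the 5 members called the same way in all 4 lines in DTP cells, or in all 4 in acute and at least 3 in DTP cells: ABCA5, ABCC10 and ABCD4, which rose, and ABCE1 and ABCF2, which fell. They were picked after their values were seen. Each run is 250 bases before to 50 after the gene's start, from RefSeq on GRCh38.p14 (the same assembly as the hg38 named in the submitters' notes), 5′ to 3′ on the gene's strand. They lie at chr17:69327084-69327383 (minus) for ABCA5, chr6:43427613-43427912 (plus) for ABCC10, chr14:74302885-74303184 (minus) for ABCD4, chr4:145098061-145098360 (plus) for ABCE1 and chr7:151227156-151227455 (minus) for ABCF2. Capitals mark letters that match a motif searched on both strands: GGGCGG, known as the SP1 box; TATAAA, the motif bound by TBP; CACGTG, an E-box; TGACTCA, the AP-1 letters, with its reverse complement TGAGTCA; TGACNNNGC, the core of an antioxidant response element, which can overlap TGACTCA; and GTAAACA, a forkhead motif.
ABCA5: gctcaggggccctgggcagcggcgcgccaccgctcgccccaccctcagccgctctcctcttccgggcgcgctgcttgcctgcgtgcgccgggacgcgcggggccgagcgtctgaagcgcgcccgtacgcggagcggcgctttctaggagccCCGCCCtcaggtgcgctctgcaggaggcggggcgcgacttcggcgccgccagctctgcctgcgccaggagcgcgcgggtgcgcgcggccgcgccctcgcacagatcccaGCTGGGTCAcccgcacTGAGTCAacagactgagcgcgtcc
ABCC10: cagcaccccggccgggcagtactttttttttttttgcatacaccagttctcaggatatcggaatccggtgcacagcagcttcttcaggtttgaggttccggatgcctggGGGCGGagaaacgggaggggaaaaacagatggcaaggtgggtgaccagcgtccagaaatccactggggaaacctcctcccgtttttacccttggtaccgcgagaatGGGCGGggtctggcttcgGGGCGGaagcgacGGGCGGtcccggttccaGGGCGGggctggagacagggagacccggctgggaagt
ABCD4: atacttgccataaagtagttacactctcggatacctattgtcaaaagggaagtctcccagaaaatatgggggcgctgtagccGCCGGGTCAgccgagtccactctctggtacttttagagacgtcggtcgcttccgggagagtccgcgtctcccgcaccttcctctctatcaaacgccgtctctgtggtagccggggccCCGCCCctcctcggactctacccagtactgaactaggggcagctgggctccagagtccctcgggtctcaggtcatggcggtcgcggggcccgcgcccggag
ABCE1: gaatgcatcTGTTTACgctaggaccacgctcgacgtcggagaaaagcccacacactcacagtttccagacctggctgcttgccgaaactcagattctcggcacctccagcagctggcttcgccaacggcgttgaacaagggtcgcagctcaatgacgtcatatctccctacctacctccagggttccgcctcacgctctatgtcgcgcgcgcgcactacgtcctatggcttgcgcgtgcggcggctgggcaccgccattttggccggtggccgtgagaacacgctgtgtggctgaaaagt
ABCF2: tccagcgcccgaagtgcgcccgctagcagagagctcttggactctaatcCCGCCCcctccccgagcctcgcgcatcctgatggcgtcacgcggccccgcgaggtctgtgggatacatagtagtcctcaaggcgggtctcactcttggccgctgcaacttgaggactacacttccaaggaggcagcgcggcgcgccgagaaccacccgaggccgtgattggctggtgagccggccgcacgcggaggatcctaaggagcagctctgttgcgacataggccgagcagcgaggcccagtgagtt

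RefSeq promoters were matched for 35 of the 45 members. GGGCGG occurs in 18 of these 35 and in 45% of all 35116 promoters, TATAAA in 5 (11.5% of all) and CACGTG in 4 (7.26%). TGACTCA occurs in 1 of the 35 (4.95% of all), TGACNNNGC in 7 (13.3%) and GTAAACA in 3 (3.42%). Of the 5 shown, ABCC10 holds 5 SP1 boxes, ABCA5 1 SP1 box with an AP-1 and an antioxidant match, ABCD4 1 SP1 box and an antioxidant match, ABCF2 1 SP1 box, and ABCE1 a forkhead match alone. A match only describes the letters in this window.

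ABCA5, a lysosomal and late endosomal lipid transporter, gave large rises in 3 lines. In PC9 it read 1.24, 1.25 and 1.71 TPM under DMSO, 6.47, 8.98 and 7.9 TPM in acute cells and 9.87, 12.1 and 9.53 TPM in DTP cells. Both drug arms stand clear of DMSO, by 2.51 ± 0.25 in acute (adjusted p = 8.06e-07, 3 of 3) and 2.66 ± 0.25 in DTP cells (adjusted p = 6.65e-07, 3 of 3). In H1975 it went from 0.688, 0.307 and 0.563 TPM to 2.53, 3.31 and 3.4 TPM in DTP cells (2.57 ± 0.31, adjusted p = 1.23e-05, 3 of 3). In HCC2935 it went from 2.46, 2.25 and 1.8 TPM to 9.59, 14.9 and 12.1 TPM (2.34 ± 0.26, adjusted p = 2.42e-06, 3 of 3). In HCC827 the groups overlap, with 2.38, 2.34 and 4.49 TPM under DMSO and 6, 4.44 and 4.57 TPM in DTP cells (0.66 ± 0.29, adjusted p = 0.0821, 2 of 3). The DTP difference differs among lines (adjusted p = 6.55e-05). ABCA5 lies in a cluster with ABCA6, ABCA8, ABCA9 and ABCA10 on chromosome 17, and of these neighbours ABCA8 rose in DTP cells of HCC2935 (3.43 ± 0.44, adjusted p = 9.5e-06, 3 of 3) and ABCA9 in PC9 (1.51 ± 0.62, adjusted p = 0.0422, 3 of 3).

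ABCA3, the surfactant lipid transporter of alveolar type 2 cells, rose in DTP cells of all lines but PC9. In HCC827 it read 3.79, 4.24 and 3.74 TPM under DMSO, 6.53, 6.81 and 6.46 TPM in acute cells and 11.5, 16.6 and 20.2 TPM in DTP cells. The 3 groups do not overlap and rise in that order (0.69 ± 0.20, adjusted p = 0.0143, then 2.02 ± 0.20, adjusted p = 3.84e-06, both 3 of 3). HCC2935 shows the same order, with 3.53, 4.82 and 1.98 TPM under DMSO, 7.06, 7.93 and 6.49 TPM in acute and 19.8, 15.9 and 16 TPM in DTP cells (DTP 2.17 ± 0.25, adjusted p = 2.5e-06, 3 of 3). In H1975 it went from 8.65, 11.8 and 9.52 to 16.6, 20.7 and 21.2 TPM in DTP cells (0.99 ± 0.15, adjusted p = 0.000105, 3 of 3). PC9 fell in acute cells (-0.48 ± 0.13, adjusted p = 0.00417, 3 of 3), and its DTP libraries, at 4.88, 5.01 and 5.53 TPM, overlap DMSO at 5.46, 4.73 and 4.91 TPM (-0.22 ± 0.13, adjusted p = 0.141, 0 of 3). The DTP difference differs among lines (adjusted p = 2.61e-09).

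ABCA12, the lipid transporter of the skin barrier, fell in the 3 lines that express it. In HCC2935 it read 42.5, 42.4 and 48.2 TPM under DMSO and 26.9, 22.3 and 27.1 TPM in DTP cells (-0.95 ± 0.11, adjusted p = 4.3e-06, 3 of 3). In HCC827 it went from 5.16, 3.01 and 8.64 to 0.95, 2.55 and 0.931 TPM (-1.96 ± 0.52, adjusted p = 0.00686, 3 of 3). The DTP groups lie wholly below DMSO, though HCC827 libraries spread widely. H1975 went from 1.04, 0.15 and 0.629 to 0.0329, 0.0147 and 0.0213 TPM, close to no expression (-4.73 ± 0.87, adjusted p = 0.000411, 3 of 3). PC9 stayed under 0.3 TPM throughout.

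ABCA4 is the member with the sharpest split. In HCC2935, where acute cells had more of it, DTP cells read 0.567, 1.47 and 1.29 TPM against 7.22, 6.33 and 6.76 TPM under DMSO, a fall of -2.76 ± 0.39 (adjusted p = 2.46e-05, 3 of 3). In PC9 DTP cells it stayed high, at 8.02, 10.4 and 8.99 TPM (2.33 ± 0.25, adjusted p = 2.25e-06, 3 of 3), and in HCC827 at 1.63, 2.98 and 0.938 TPM (2.71 ± 0.70, adjusted p = 0.0057, 3 of 3). The DTP libraries thus lie above DMSO in these 2 lines and below it in HCC2935. The DTP difference differs among lines (adjusted p = 5.57e-09). ABCA1 also split, with a rise in HCC2935 (a mean 4.79 times that of DMSO, standard error 0.32 log2 units, adjusted p = 5.54e-05, 3 of 3) and a fall in HCC827 (-0.78 ± 0.22, adjusted p = 0.00936, 3 of 3). ABCA13, a large transporter of little known role, fell in PC9 (-1.69 ± 0.51, adjusted p = 0.00883, 3 of 3) and H1975 (-1.72 ± 0.53, adjusted p = 0.0137, 3 of 3), at under 0.5 TPM in both; the PC9 call is lost with limma. ABCG1 rose in PC9 (0.88 ± 0.26, adjusted p = 0.00705, 3 of 3).

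**Figure D4:**
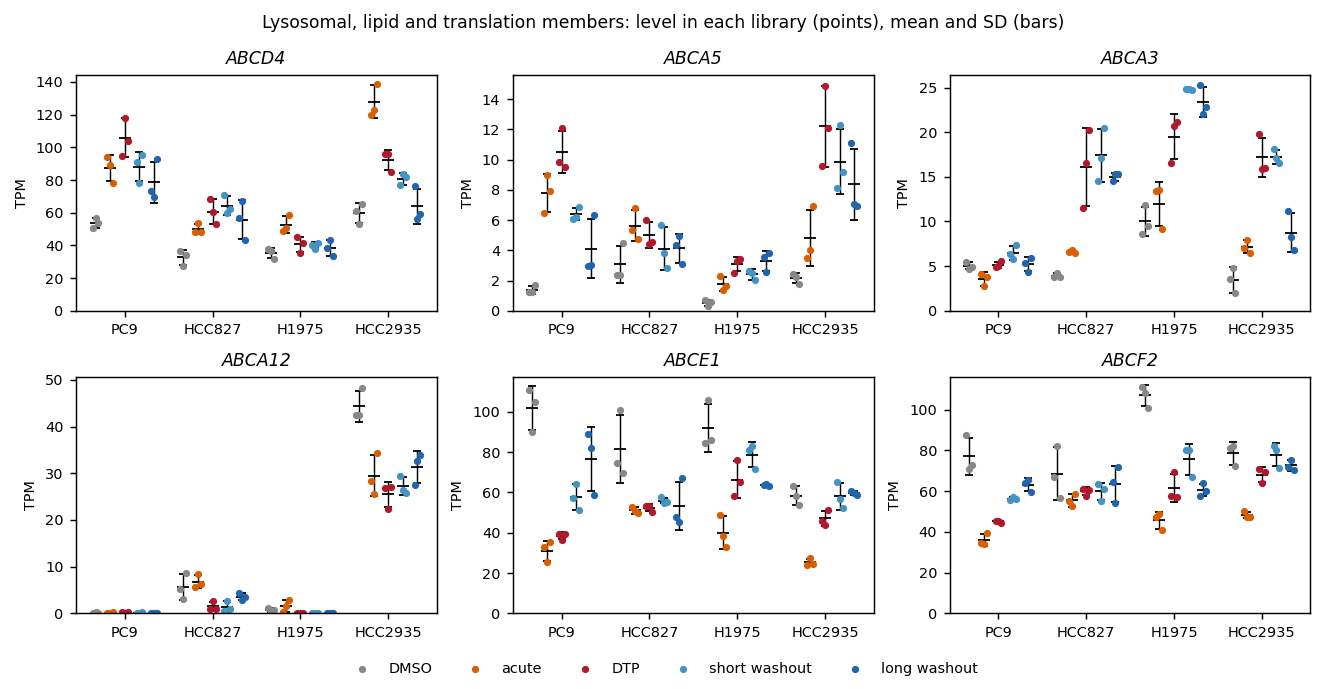
Level of 6 members outside the efflux pumps in every library. Points are single libraries in TPM, with the mean and standard deviation of the 3 libraries of each arm. ABCD4 and ABCA5 stand higher in the drug arms, and ABCA3 is highest in DTP and washout cells outside PC9. ABCA12 is lower in DTP than in DMSO cells outside PC9. ABCE1 and ABCF2 are lowest in acute cells.

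ABCE1 stayed below DMSO in DTP cells of every line. Of the 4 soluble members 3 fell in PC9 (median -0.70; 33.5% of all genes fell), H1975 (-0.31; 25.7%) and HCC2935 (-0.32; 25.8%), and 1 in HCC827 (-0.19; 20.4%). In PC9 ABCE1 read 39.5, 36.5 and 39.4 TPM in DTP cells, against 111, 90 and 105 TPM under DMSO (-1.66 ± 0.17, adjusted p = 1.06e-06, 3 of 3). In HCC827 it went from 74.5, 101 and 69.5 to 53.5, 53.4 and 50.3 TPM (-0.66 ± 0.14, adjusted p = 0.00157, 3 of 3). H1975 went from 84.5, 106 and 86.2 to 58.1, 76.1 and 65 TPM (-0.45 ± 0.13, adjusted p = 0.0109, 3 of 3). HCC2935 went from 63, 58.4 and 53.6 to 45.8, 44 and 51.5 TPM (-0.46 ± 0.11, adjusted p = 0.00195, 3 of 3). The DTP and DMSO libraries do not overlap in any line, and the fall differs among lines (adjusted p = 3.06e-06). ABCF2 fell in PC9 (-1.02 ± 0.10, adjusted p = 6.24e-07, 3 of 3), H1975 (-0.78 ± 0.09, adjusted p = 1.31e-05, 3 of 3) and HCC2935 (-0.35 ± 0.09, adjusted p = 0.00438, 3 of 3). ABCF1 fell in PC9 (-0.38 ± 0.09, adjusted p = 0.00115, 0 of 3) and HCC2935 (-0.28 ± 0.10, adjusted p = 0.0297, 2 of 3), and in PC9 its TPM ranges overlap; both calls are lost with limma. ABCF3 fell in H1975 (-0.17 ± 0.07, adjusted p = 0.0489, 3 of 3).

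ABCD4 was above DMSO in DTP cells of 3 lines, though in HCC2935 it was lower than in acute cells (-0.65 ± 0.10, adjusted p = 9.77e-05, 3 of 3). In HCC827 it read 36.5, 27.6 and 34.3 TPM under DMSO and 68.4, 60.7 and 53 TPM in DTP cells (0.85 ± 0.15, adjusted p = 0.000407, 3 of 3). In PC9 DTP cells it read 94.7, 118 and 104 TPM (0.73 ± 0.10, adjusted p = 2.47e-05, 3 of 3) and in HCC2935 96.1, 95.7 and 85.2 TPM (0.48 ± 0.10, adjusted p = 0.000956, 3 of 3). H1975 is the line without a called change, with 38, 36.5 and 31.9 TPM under DMSO and 45, 35.6 and 41.3 TPM in DTP cells, which overlap (0.22 ± 0.11, adjusted p = 0.117, 2 of 3). ABCA2 rose in PC9 (0.41 ± 0.08, adjusted p = 0.000632, 3 of 3), H1975 (0.53 ± 0.14, adjusted p = 0.00576, 3 of 3) and HCC2935 (0.67 ± 0.16, adjusted p = 0.00198, 3 of 3). ABCD3 fell in PC9 (-0.47 ± 0.07, adjusted p = 6.32e-05, 3 of 3), HCC827 (-0.33 ± 0.11, adjusted p = 0.0253, 3 of 3) and HCC2935 (-0.29 ± 0.09, adjusted p = 0.0114, 2 of 3). ABCB9 fell in H1975 (-0.85 ± 0.23, adjusted p = 0.00615, 3 of 3).

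Of the mitochondrial members described here, ABCB8 fell in H1975 (-0.81 ± 0.13, adjusted p = 0.000112, 3 of 3) and PC9 (-0.42 ± 0.08, adjusted p = 0.000444, 3 of 3) in DTP cells. ABCB10 fell in PC9 alone (-1.42 ± 0.17, adjusted p = 3.86e-06, 3 of 3), and ABCB6 rose there (0.51 ± 0.09, adjusted p = 0.00012, 3 of 3).

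ABCB5, a pump described in melanoma and in limbal stem cells, gave the largest fold between DTP and DMSO cells and one of the lowest levels. In H1975 it read 0.00455, 0.00516 and 0.0337 TPM under DMSO and 0.657, 0.484 and 0.525 TPM in DTP cells, far apart but all under 1 TPM (4.88 ± 0.59, adjusted p = 1.4e-05, 3 of 3). In HCC827 it went from 0.0312, 0.0102 and 0 to 0.769, 0.905 and 0.429 TPM (5.00 ± 1.17, adjusted p = 0.00321, 3 of 3). The HCC827 DMSO group holds 3 rounded counts in all, so the ratio of counts scaled to library totals is 37.1 with a 95% counting interval from 12.4 to 183. It was still raised after long washout in HCC827, at 0.97, 0.619 and 1.45 TPM (adjusted p = 0.00171, 5.52 ± 1.17, 3 of 3).

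Between 24 h and 21 days of drug the members moved in both directions. ABCA3 was higher in DTP than in acute cells in 3 lines, and ABCA12 and ABCB9 were lower in 3, with the HCC2935 call of ABCA12 lost with limma. ABCE1 and ABCF2 regained level in H1975 and HCC2935: ABCE1 read 48.8, 38.5 and 32.7 TPM in acute and 58.1, 76.1 and 65 TPM in DTP cells of H1975 (0.71 ± 0.13, adjusted p = 0.00107, 3 of 3). The largest fall was that of ABCA12 in H1975, from 0.335, 1.59 and 2.8 TPM in acute to 0.0329, 0.0147 and 0.0213 TPM in DTP cells (-6.11 ± 0.89, adjusted p = 0.000192, 3 of 3). ABCA4 in HCC2935 came next (-4.85 ± 0.41, adjusted p = 1.69e-07, 3 of 3). In both, the DTP libraries lie far below every acute library.

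Of the members tested in DTP against acute cells, 21 of 36 were called in H1975 (12 higher and 9 lower), where 37.2% of all genes were. In HCC2935 14 of 37 were called (44.7% of all genes), in HCC827 11 of 36 (29.4%) and in PC9 9 of 34 (33.9%), all 9 of them lower. The share in H1975 is above that of all genes and those of the other lines lie near or below it. The PC9 direction depends on the scaling: with library size alone the calls are 5 higher and 6 lower.

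Removing the drug for 24 h changed few members in the fit of 15 libraries, and in PC9, H1975 and HCC2935 the number depends on the fit. ABCA1 fell in PC9, from 8.15, 8.73 and 9.25 TPM in DTP cells to 2.75, 2.41 and 4.06 TPM (a mean 0.353 times that of DTP cells, standard error 0.23 log2 units, adjusted p = 0.00406, 3 of 3). It also fell in HCC2935, from 2.77, 3.55 and 1.45 to 0.617, 0.737 and 1.08 TPM (-1.67 ± 0.32, adjusted p = 0.00932, 3 of 3). In neither line do the groups overlap. In PC9 ABCE1 rose from 39.5, 36.5 and 39.4 to 57.4, 64.2 and 51.2 TPM (0.60 ± 0.16, adjusted p = 0.0447, 3 of 3). ABCB8 rose in PC9 (0.36 ± 0.08, adjusted p = 0.028, 3 of 3), and ABCC9 in HCC2935 from 0.447, 0.508 and 0.566 to 1.03, 1.27 and 1.51 TPM (1.32 ± 0.27, adjusted p = 0.0135, 3 of 3). The ABCC9 call is lost with limma or with a replicate block on the 2 arms, and the ABCE1 call with a replicate block on the 15 libraries. In H1975 ABCA1 read 21.6, 17.8 and 8.26 TPM in DTP and 8.29, 6.78 and 7.04 TPM in short washout cells, where 1 DTP library lies inside the short washout range, and it was not called in the fit of 15 libraries.

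In short washout against DTP cells 3 of 34 members were called in PC9 (5.92% of all genes; 14 members with only the 2 arms in the fit, 7 with DESeq2, 1 to 8 with a library left out, the 8 without replicate 3 of long washout), 2 of 37 in HCC2935 (3.14%), 0 of 36 in HCC827 (0%) and 0 of 36 in H1975 (0.0585%). For these zero counts from edgeR, 2 members in HCC827 and 8 in H1975 have an unadjusted p under 0.05, and DESeq2 and limma also call 0 in both lines. Labelled replicate numbers carry a shared pattern between these arms in HCC827 and H1975, and a fit of the 6 libraries with the replicate number as a block, chosen after the data were seen, calls 9 members in H1975, 0 in HCC827, 7 in PC9 and 0 in HCC2935. Without the block the same 6 libraries give 0, 0, 14 and 2 in that order. The shares of all genes given above belong to the fit of 15 libraries, so the counts of the 6-library fits cannot be set against them.

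Long washout moved several members back toward their DMSO level in PC9 and HCC2935 and none was called in the other lines. ABCE1 rose in PC9 to 89.1, 81.9 and 58.9 TPM (1.09 ± 0.16 over DTP, adjusted p = 0.000916, 3 of 3) and in HCC2935 to 60.5, 59.8 and 58.9 TPM (0.39 ± 0.11, adjusted p = 0.0267, 3 of 3). ABCD4 fell in PC9 to 73.3, 69.4 and 93 TPM (-0.35 ± 0.10, adjusted p = 0.0173, 3 of 3) and in HCC2935 to 76.2, 56.2 and 59.4 TPM (-0.49 ± 0.10, adjusted p = 0.00647, 3 of 3). All of these libraries lie beyond every DTP library of their line. ABCA5 fell in PC9 (-1.29 ± 0.23, adjusted p = 0.00151, 3 of 3) and ABCA3 in HCC2935 (-0.93 ± 0.23, adjusted p = 0.0162, 3 of 3). ABCC5 fell in PC9 (-0.46 ± 0.15, adjusted p = 0.0239, 3 of 3) and ABCC4 rose there from its low DTP level (2.26 ± 0.74, adjusted p = 0.0269, 3 of 3). With only the 2 arms in the fit the calls of ABCC4, ABCC5 and ABCD4 in PC9 and of ABCD4 and ABCE1 in HCC2935 are lost. Without replicate 3 of PC9 long washout, which stands apart, 18 members are called in PC9 in place of 12, and the PC9 calls given here for ABCA5, ABCC4, ABCC5, ABCD4 and ABCE1 hold. ABCA1 stayed below DTP in PC9 (-0.88 ± 0.22, adjusted p = 0.00826, 3 of 3) and HCC2935 (-1.06 ± 0.31, adjusted p = 0.036, 2 of 3).

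In long washout against DTP cells 8 of 34 members rose in PC9 (20.4% of all genes) and 4 fell (16.8%), and in HCC2935 3 of 37 rose (6.82%) and 3 fell (4.94%). In HCC827 0 of 36 rose (0%) and 0 fell (0%), and in H1975 0 of 36 rose (0%) and 0 fell (0.0065%). The edgeR zero counts go with 1 member at an unadjusted p under 0.05 in HCC827 and 0 in H1975, and DESeq2 and limma call 0 in both. The time without drug differs by line, so line and washout time cannot be told apart here.

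Set against DMSO, long washout cells still differ in many members. ABCA2, ABCA3, ABCA5 and ABCC1 were higher in 3 lines and ABCE1 lower in 3. In H1975 ABCA5 read 3.57, 2.57 and 3.79 TPM after long washout (2.69 ± 0.31 over DMSO, adjusted p = 7.3e-06, 3 of 3), and ABCA3 25.3, 22 and 22.8 TPM (1.26 ± 0.15, adjusted p = 1.3e-05, 3 of 3). Both remain clear of every DMSO library. In HCC2935 ABCE1 was back among the DMSO libraries (-0.07 ± 0.11, adjusted p = 0.651, 0 of 3). In all 18 of 36 members were called in H1975 (53.3% of all genes), 15 of 36 in HCC827 (42%), 15 of 37 in HCC2935 (43.3%) and 13 of 34 in PC9 (44.9%), shares near those of all genes.

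The lines differ in most members before any drug, as they do in most genes tested. Under DMSO 36 of the 39 members that could be tested differ among the 4 lines (89.3% of all genes do), all but ABCA6, ABCA9 and ABCB5. The acute change differs among lines for 20 of 39 members (41.4% of all genes) and the DTP change for 24 of 39 (63.9%). The DMSO and DTP counts lie near the shares of all genes, so they say little about the family. The DTP rise of ABCC10 did not differ among lines by the test of that difference (adjusted p = 0.335), nor did that of ABCA2 (adjusted p = 0.689). The acute rise of ABCA7 (adjusted p = 0.734) and the acute fall of ABCF1 (adjusted p = 0.56) did not differ either, which does not show that they are equal.

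Genes around the family are counted over the lists given, and the ones named from them were chosen after their values were seen. Their counts are to be read against all genes, of which in acute cells 34.5% rose and 31.7% fell in PC9, 18.7% and 20.2% in HCC827, 27.8% and 23.8% in H1975, and 24.9% and 22.2% in HCC2935. In DTP cells 35.7% rose and 33.5% fell in PC9, 23% and 20.4% in HCC827, 26% and 25.7% in H1975, and 27% and 25.8% in HCC2935. No list was tested against these shares. ABC proteins under other symbols are TAP1 and TAP2, the antigen peptide pump, and CFTR, a chloride channel. TAP1 rose in acute cells of PC9 (1.69 ± 0.27, adjusted p = 7.72e-05), HCC827 (0.46 ± 0.10, adjusted p = 0.00196) and H1975 (0.37 ± 0.10, adjusted p = 0.00841), and in DTP cells of the same 3 lines. In HCC2935 its acute difference was -0.03 ± 0.12 (adjusted p = 0.875). TAP2 went the other way after 24 h: it fell in acute cells of HCC2935 (-1.08 ± 0.15, adjusted p = 2.07e-05), H1975 (-1.04 ± 0.17, adjusted p = 0.000127) and HCC827 (-0.78 ± 0.21, adjusted p = 0.00873) and was not called in PC9 (-0.39 ± 0.19, adjusted p = 0.0875). In DTP cells it fell in HCC2935 (-0.73 ± 0.14, adjusted p = 0.00051) and HCC827 (-0.61 ± 0.21, adjusted p = 0.0286) and was not called in H1975 or in PC9, where its mean went from 26.8 to 40.2 TPM (0.33 ± 0.19, adjusted p = 0.133). CFTR was called in no line in either comparison.

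The nuclear receptors and factors known to regulate efflux pumps that are given here are NR1I2, NR1I3, NR1H2, NR1H3, NR1H4, RXRA, PPARA, PPARG, AHR, ARNT, NFE2L2, HIF1A, FOXO1, FOXO3 and YBX1. In acute cells 6 of 13 tested rose and 3 fell in PC9 (median 0.22), 5 of 13 and 3 in HCC827 (0.29), 9 of 14 and 2 in H1975 (0.48), and 6 of 13 and 3 in HCC2935 (0.20). In DTP cells 5 rose and 4 fell in PC9 (0.17), 4 and 3 in HCC827 (0.24), 6 and 1 in H1975 (0.24), and 4 and 4 in HCC2935 (0.06). PPARG fell in acute and DTP cells of every line, in DTP cells from -0.79 ± 0.19 in HCC827 (adjusted p = 0.00338) to -2.09 ± 0.18 in PC9 (adjusted p = 4.49e-07). YBX1, a factor tied to ABCB1, fell in acute cells of every line, most in PC9 (-0.97 ± 0.13, adjusted p = 1.44e-05). NFE2L2, the oxidative stress factor, rose in acute cells of all 4 lines, most in PC9 (0.65 ± 0.09, adjusted p = 2.06e-05). AHR, the dioxin receptor, rose in DTP cells of H1975 (2.05 ± 0.19, adjusted p = 1.43e-06) and HCC827 (1.55 ± 0.14, adjusted p = 1.42e-06).

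The 7 LXR and sterol export genes outside the family (MYLIP, SREBF1, SCD, LPCAT3, APOE, SMPDL3A and PLTP) showed no common direction. In acute cells 2 rose and 1 fell of 7 tested in PC9 (median -0.34), 2 and 2 in HCC827 (0.21), 3 and 1 in H1975 (0.08), and 4 and 1 of 6 in HCC2935 (0.92), the line where ABCA1 rose. In DTP cells 2 rose and 3 fell in PC9 (0.01), 3 and 2 in HCC827 (-0.20), 1 and 0 in H1975 (-0.09), and 2 and 2 in HCC2935 (0.55).

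Of the 12 drug-metabolising enzymes (CYP1A1, CYP1B1, CYP3A4, CYP3A5, UGT1A1, UGT1A6, GSTP1, GSTA1, GSTM1, NQO1, GCLC and GCLM), 8 of 9 tested rose and 1 fell in acute PC9 cells (median 0.90). The counts were 2 and 1 of 8 in HCC827 (0.22), 4 and 1 of 10 in H1975 (0.40), and 5 and 2 of 10 in HCC2935 (0.39). In DTP cells 6 rose and 2 fell in PC9 (0.47), 2 and 2 in HCC827 (0.30), 2 and 3 in H1975 (-0.31), and 3 and 4 in HCC2935 (0.24). CYP1B1 rose in acute cells of all 4 lines, most in PC9 (2.47 ± 0.30, adjusted p = 5.73e-06). NQO1 fell in DTP cells of all 4, most in HCC2935 (-1.12 ± 0.17, adjusted p = 5.79e-05). In PC9 its mean went only from 667 to 634 TPM, and the direction of small differences in that line depends on the scaling.

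Uptake carriers bring drugs and metabolites into cells. Of the 8 given here (SLCO1B3, SLCO2A1, SLCO3A1, SLCO4A1, SLC22A3, SLC22A4, SLC22A5 and SLC22A18), 4 of 6 tested rose and 2 fell in acute PC9 cells (median 0.89), 1 and 2 of 8 in HCC827 (-0.05), 1 and 1 of 7 in H1975 (0.16), and 2 and 2 of 8 in HCC2935 (-0.13). In DTP cells 4 rose and 2 fell in PC9 (0.77), 2 and 3 in HCC827 (-0.04), 2 and 3 in H1975 (-0.56), and 2 and 1 in HCC2935 (0.28). SLCO4A1, an organic anion carrier, fell in both comparisons in every line, in DTP cells by -2.02 ± 0.22 in PC9 (adjusted p = 2.1e-06). SLC22A5, the carnitine carrier, rose in DTP cells of every line, most in PC9 (1.34 ± 0.18, adjusted p = 1.11e-05).

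Cell type markers moved in the same comparisons. In acute cells the epithelial list rose in PC9 (4 of 5 higher and 1 lower, median 1.12), where its sum went from 7048, 6942 and 6895 to 12551, 12714 and 13641 TPM, and fell in HCC2935 (3 of 5 lower, -0.95), from 10066, 10479 and 10049 to 4966, 5168 and 4724 TPM. In HCC827 2 of 5 fell (-0.08), and in H1975 2 rose and 1 fell (0.17). The fibroblast sum of H1975 went from 58.2, 25.7 and 21.4 to 110, 88.5 and 199 TPM in acute cells, with 2 of 3 genes higher. The epithelial list fell in DTP cells, with 5 of 5 lower in HCC827 (median -1.57), 3 of 5 in H1975 (-0.38) and 4 of 5 in HCC2935 (-0.53), while in PC9 2 rose and 2 fell (0.08). In H1975, the line where ABCG2 and ABCC3 fell and ABCA12 was nearly lost, the mean level of CDH1 went from 84.5 TPM under DMSO to 2.37 TPM in DTP cells. Summed over the 5 genes the H1975 libraries read 2953, 2350 and 2592 TPM under DMSO and 2288, 1873 and 1636 TPM in DTP cells, with KRT8 the most abundant. In HCC827 the sum went from 7924, 6738 and 6220 to 3229, 2350 and 3312 TPM, in HCC2935 from 10066, 10479 and 10049 to 7007, 7288 and 8047 TPM, and in PC9 from 7048, 6942 and 6895 to 8008, 8040 and 8243 TPM. Of the fibroblast list (COL1A1, COL1A2 and DCN) 2 of 3 rose in DTP cells of PC9, HCC827 and HCC2935 and 1 of 3 in H1975. COL1A1 is its most abundant gene in every line and DCN stayed under 1 TPM as a group mean in DMSO and DTP cells. Summed, the list went from 7.29, 4.98 and 9.26 to 41.8, 21.3 and 33.6 TPM in HCC827, from 8.02, 8.4 and 6.17 to 13.2, 13.4 and 17.7 TPM in PC9, from 26.7, 26.3 and 33.5 to 42.6, 79.5 and 64.7 TPM in HCC2935, and from 58.2, 25.7 and 21.4 to 107, 35.6 and 62.2 TPM in H1975. The leukocyte marker PTPRC reached at most 2.91 TPM as a group mean under DMSO, in H1975, and the endothelial marker PECAM1 7.83 TPM, in PC9. Of the lung markers NAPSA, SFTPB and NKX2-1, the last was not analysed here, and NAPSA had a mean of 228 TPM in HCC2935 and 0.343 TPM in PC9 under DMSO. In acute cells NAPSA rose in every line, in HCC827 from 50.7 to 138 TPM (1.37 ± 0.35, adjusted p = 0.00673). In DTP cells it fell in HCC2935, to 20.2 TPM (-3.64 ± 0.29, adjusted p = 6.18e-08), and in HCC827, to 17.7 TPM (-1.57 ± 0.36, adjusted p = 0.00287), and rose in PC9, to 2.84 TPM (2.80 ± 0.50, adjusted p = 0.000164). PECAM1 fell in DTP cells of PC9, to 1.78 TPM (-2.39 ± 0.30, adjusted p = 8.62e-06), and PTPRC in those of H1975, to 1.02 TPM (-1.51 ± 0.34, adjusted p = 0.00166). The part of these markers in the changes of ABC members was not tested.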

How the data were processed

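The authors' deposited tables hold, for each of the 60 libraries, expected_counts, taken as estimated count, and log2 values of TPM plus 0.01, from which TPM was recovered. For all 7411 genes with over 200 counts in every library the ratio of count to TPM is constant, within 1e-06 log2 units, apart from a library factor. The counts are therefore abundances scaled back. The submitters' processing notes name HISAT2 2.1.0, Salmon 0.8.2 and hg38, with no role or order. Library totals run from 17.7 M to 49.1 M counts.

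Rounded counts of the 15 libraries of a line were fitted by arm with edgeR 4.0.16 in R 4.3.3 (TMM, filterByExpr, quasi-likelihood F-test), and all 60 libraries together for differences among lines. Standard errors are the log2 difference over the root of F. Genes named are ABCB1, ABCG2, the expressed ABCC members and up to 3 others per role called alike in 2 or more lines in DTP cells; further members and listed genes were named after their values were seen. Alternatives were limma 3.58.1 on log2 TPM, DESeq2 1.42.0, other scaling, filters and thresholds, a replicate block, only the arms compared, and each library left out. Python 3.11.15, numpy 2.4.6, pandas 2.3.3 and matplotlib 3.10.9 made tables and figures. Some members and listed genes are not reported here, and list counts are over the genes given. The members and lists were chosen with earlier results of these data known.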

Additional observations from a re-analysis of the deposited data

Results flagged for a closer look

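Results below were marked because the change differs among the 4 lines by the test of that difference, so no single value stands for all lines. Each is given with its adjusted p and the lines at the ends.

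In acute against DMSO cells the change differs among lines for the members named here. ABCC1 runs from 0.34 in HCC827 to -0.46 in PC9 (adjusted p = 1.46e-05). ABCC3 runs from 0.56 in HCC827 to -0.88 in PC9 (adjusted p = 0.0109). ABCC5 runs from 1.76 in PC9 to -0.24 in H1975 (adjusted p = 1.05e-11). ABCB8 runs from 0.27 in PC9 to -0.41 in HCC827 (adjusted p = 0.00853). ABCD4 rose everywhere, from 0.54 in HCC827 to 1.13 in HCC2935 (adjusted p = 0.0271). ABCA4 runs from 3.06 in PC9 to -0.86 in H1975 (adjusted p = 0.000166). ABCA3 runs from 1.09 in HCC2935 to -0.48 in PC9 (adjusted p = 0.000184). ABCA5 runs from 2.51 in PC9 to 0.80 in HCC827 (adjusted p = 0.00313). ABCA13 runs from 0.92 in H1975 to -2.38 in PC9 (adjusted p = 0.00415). ABCD3 runs from -0.20 in HCC2935 to -0.72 in HCC827 (adjusted p = 0.00799). ABCE1 fell everywhere, from -0.74 in HCC827 to -1.70 in PC9 (adjusted p = 0.00209). ABCF2 fell everywhere, from -0.37 in HCC827 to -1.19 in H1975 (adjusted p = 2.45e-05).

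In DTP against DMSO cells 4 members with low counts in some lines differ among lines. ABCB1 runs from 4.36 in HCC2935 to 0.40 in HCC827, the 2 lines tested on their own (adjusted p = 0.00179). ABCC2, tested in 2 lines, runs from 2.02 in HCC2935 to -2.08 in PC9 (adjusted p = 0.0219). ABCC4 runs from 0.12 in HCC2935 to -2.42 in PC9 (adjusted p = 0.0346). ABCB5, tested in 2 lines, stands at 5.00 in HCC827 and 4.88 in H1975, and PC9 and HCC2935 were not tested on their own (adjusted p = 0.000772).

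Other DTP differences are spread over roles. ABCG2 runs from 0.62 in HCC2935 to -1.58 in H1975 (adjusted p = 0.00439). ABCC1 runs from 0.62 in HCC2935 to -0.38 in PC9 (adjusted p = 5.27e-08). ABCC3 runs from 0.53 in HCC827 to -1.54 in H1975 (adjusted p = 0.000209). ABCC5 runs from 1.20 in PC9 to -0.05 in H1975 (adjusted p = 1.06e-07). ABCC6 runs from 2.40 in H1975 to -0.25 in HCC2935 (adjusted p = 0.00054). ABCC9 runs from 1.02 in PC9 to -0.65 in HCC2935 (adjusted p = 0.00107). ABCB8 runs from -0.09 in HCC2935 to -0.81 in H1975 (adjusted p = 0.00572). ABCD4 runs from 0.85 in HCC827 to 0.22 in H1975 (adjusted p = 0.0088). ABCA4 runs from 2.71 in HCC827 to -2.76 in HCC2935 (adjusted p = 5.57e-09). ABCA12 runs from 0.33 in PC9 to -4.73 in H1975 (adjusted p = 0.000861). ABCA3 runs from 2.17 in HCC2935 to -0.22 in PC9 (adjusted p = 2.61e-09). ABCA5 runs from 2.66 in PC9 to 0.66 in HCC827 (adjusted p = 6.55e-05). ABCD3 runs from 0.08 in H1975 to -0.47 in PC9 (adjusted p = 0.00133). ABCE1 runs from -0.45 in H1975 to -1.66 in PC9 (adjusted p = 3.06e-06). ABCF2 runs from -0.22 in HCC827 to -1.02 in PC9 (adjusted p = 2.4e-05).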

How the results depend on the processing

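Limits: each group has 3 libraries, the counts are scaled abundances, and RNA levels say nothing of protein or transport. Of 203 called changes of named genes 136 held under every alternative run for them, and not every alternative was run for every change. A further 313 changes of named genes were not called. Counts of members follow with the value of the 15-library or 60-library fit in parentheses.

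With DESeq2 short washout against DTP calls 7 in PC9 (3). At adjusted p under 0.01 the counts are for acute against DMSO 3 in HCC827 (13) and 11 in HCC2935 (18); for DTP against acute 5 in PC9 (9) and 3 in HCC827 (11); for long washout against DMSO 7 in PC9 (13) and 7 in HCC827 (15); for long washout against DTP 7 in PC9 (12) and 1 in HCC2935 (6); for short washout against DTP 1 in PC9 (3) and 1 in HCC2935 (2); and 13 members (20) differ among lines in the acute change. With at least 10 counts in every library short washout against DTP calls 5 in PC9 (3), and 23 members (36) differ among lines under DMSO. With limma short washout against DTP calls 5 in PC9 (3) and 1 in HCC2935 (2). With only the 2 arms compared, short washout against DTP calls 14 in PC9 (3), and long washout against DTP 7 in PC9 (12) and 2 in HCC2935 (6). With limma ABCD3 turned in DTP against acute cells of PC9, 0.05 (-0.23).

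The replicate block was tried since replicate numbers might pair arms. Of 40 pairs of arms 2 had every correlation over 0.1, DTP with short washout in HCC827 and H1975. In the 6-library fit of those arms, added after the data were seen, the block gives 9 members in H1975 (0), 7 in PC9 (3) and 0 in HCC2935 (2). This changes both the libraries and the block: the same 6 libraries without it give 0, 14 and 2.

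Leaving out each library in turn gives these lowest and highest counts. Acute against DMSO: 21 to 25 in PC9 (24), 8 to 14 in HCC827 (13), 12 to 16 in H1975 (15) and 11 to 18 in HCC2935 (18). DTP against DMSO: 18 to 24 (20), 11 to 15 (12), 14 to 17 (17) and 15 to 18 (17) in the same order. DTP against acute: 5 to 11 (9), 3 to 13 (11), 14 to 22 (21) and 11 to 15 (14). Short washout against DTP: 1 to 8 (3), 0 to 0 (0), 0 to 0 (0) and 0 to 2 (2). Long washout against DTP: 8 to 18 (12), 0 to 0 (0), 0 to 0 (0) and 2 to 8 (6). Long washout against DMSO: 10 to 16 (13), 10 to 15 (15), 17 to 19 (18) and 12 to 17 (15).

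Counts moved over 1.5 times as follows. Acute against DMSO: 8 in HCC827 without DMSO replicate 2 or acute replicate 2, and 11 in HCC2935 without acute replicate 3. DTP against acute: 5 in PC9 without DTP replicate 3, and in HCC827 7, 6 and 4 without acute replicates 1, 2 and 3, and 6 and 3 without DTP replicates 2 and 3. Short washout against DTP: 1 in PC9 without any DTP or short washout library, 5 and 8 without long washout replicates 2 and 3, 0 in HCC2935 without DTP replicate 2 and 1 without any short washout library. Long washout against DTP in HCC2935: 3 without DTP replicate 1, and 2 without DTP replicate 2 or long washout replicate 2 or 3.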
